A study of Mus musculus with 12 samples.

Results

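The data cover 10 genes that move bile acids through the gut wall or answer to them, measured in mouse duodenum: the transporters and carrier Slc10a2, Fabp6, Slc51a and Slc51b, the receptor Nr1h4 and its targets Nr0b2 and Fgf15, the membrane receptor Gpbar1, and the receptor pair Fgfr4 and Klb. They were chosen by name, as every probe whose accession maps to one of them, and make up 10 of the 22905 named genes and 12 of the 56583 probes kept. The 4 groups of 3 arrays were wild-type (WT) mice and IAP knockout (Akp3-/-) mice, each given either vehicle or IIAEK, a pentapeptide named by its residues in 1-letter code, which the labels call cholesterol-lowering. All animals were male and 7 weeks old at the start. Vehicle was a solution of carboxymethylcellulose sodium salt at 5 g/L, given by mouth daily for 14 days, and IIAEK was given in the same vehicle at 600 mg per kg body weight per day. Titles and design text give 14 days for all groups, while the source labels of the IIAEK groups name longer times. Tissue was taken after 8 h without food. The knockout lacks Akp3, a duodenal intestinal alkaline phosphatase (IAP); how it was made and the strain background are not given in the sources used here. RNA came from duodenum as a whole, so a lower level of a gene cannot be told apart as less RNA per cell or fewer cells of the type that makes it.

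Bile acids are detergents made from cholesterol in the liver, released into the duodenum with bile, and taken back up mainly in the ileum, the far end of the small intestine. There Slc10a2 carries them into enterocytes, Fabp6 binds them in the cytosol, and Slc51a and Slc51b together form the exporter on the basal side. Inside the cell bile acids activate FXR, the nuclear receptor encoded by Nr1h4, which raises Fabp6, Slc51a, Slc51b, Nr0b2 and the hormone gene Fgf15. FGF15 then acts in the liver on Fgfr4 and its co-receptor Klb to restrain bile acid synthesis, while Gpbar1 encodes TGR5, a bile acid receptor of the cell surface.

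The promoters of the 4 uptake, carrier and export genes are shown because their products pass the same cargo through 1 cell type, and of these 4 windows the FXR repeat searched for was found in that of Fabp6. Each is the 250 bases before the RefSeq start of assembly GRCm38.p6, written 5′ to 3′ on the gene's strand, with a motif match in capitals where one of 4 searched motifs was found. Slc10a2 lies on the minus strand (chr8:5105288-5105537), as do Fabp6 (chr11:43601563-43601812), Slc51a (chr16:32487880-32488129) and Slc51b (chr9:65422774-65423023).
Slc10a2: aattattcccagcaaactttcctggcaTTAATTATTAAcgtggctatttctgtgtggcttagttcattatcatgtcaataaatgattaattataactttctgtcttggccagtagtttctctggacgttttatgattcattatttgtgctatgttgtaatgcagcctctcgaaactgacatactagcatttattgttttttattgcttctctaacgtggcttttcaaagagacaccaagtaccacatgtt
Fabp6: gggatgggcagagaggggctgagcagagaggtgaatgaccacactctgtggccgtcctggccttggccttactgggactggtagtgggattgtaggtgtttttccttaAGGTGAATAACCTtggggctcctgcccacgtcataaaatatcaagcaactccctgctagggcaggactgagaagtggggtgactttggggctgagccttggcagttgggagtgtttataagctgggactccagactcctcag
Slc51a: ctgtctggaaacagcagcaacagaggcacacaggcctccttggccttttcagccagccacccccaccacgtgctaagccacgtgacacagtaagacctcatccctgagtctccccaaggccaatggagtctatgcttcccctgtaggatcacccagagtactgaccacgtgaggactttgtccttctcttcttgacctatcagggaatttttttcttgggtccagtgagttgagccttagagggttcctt
Slc51b: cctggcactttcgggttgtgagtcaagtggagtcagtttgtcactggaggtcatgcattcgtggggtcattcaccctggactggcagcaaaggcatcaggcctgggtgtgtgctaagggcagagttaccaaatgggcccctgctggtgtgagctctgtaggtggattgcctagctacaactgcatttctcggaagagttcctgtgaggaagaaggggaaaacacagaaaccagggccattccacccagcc
The capitals in Fabp6, 142 to 130 bases before the start, match AGGTNANTNACCT, the inverted repeat of AGGTNA around 1 free base, a form of the element FXR binds, whose letters were set with the Fabp6 site in view. That motif occurred in 6 of the 32851 mouse promoters of this length searched on both strands (0.0183%). In Slc10a2 the capitals, 223 to 213 bases before the start, match TTAATNATTAA, the palindrome bound by HNF1 factors, present in 38 promoters (0.116%). Slc51a and Slc51b held none of the 4 motifs in these windows. Outside the printed set, Nr0b2 held TCAAGGT, a binding site of the orphan receptor LRH-1, 68 to 62 bases before its start (2.96% of promoters hold it), and Nr1h4 held AGATAA, a site of GATA factors, on the opposite strand 131 to 126 bases before its start (9.99%). No 2 of these matches overlapped. A promoter was found in the RefSeq table for 9 of the 10 genes. A match is a string of letters and was not tested as a binding site.

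All levels below are log2 processed intensities minus the 75th percentile of the same array, so 0 is that percentile, and a level of one probe is not set against that of another. An array had 55.9% to 64.0% of its probes clearly above background, and its 75th percentile was an intensity of 195 to 465. The brightest Akp3 probe separated the genotypes, with 1.05 the lowest wild-type and -3.80 the highest knockout level. All 12 enterocyte markers were measured on every array, with a list mean of 6.62 to 7.32. The arrays were less uniform in other tissue markers. The mean of 9 measured stomach and Brunner's gland mucous markers fell into 2 sets, 4.30 to 5.83 on 6 arrays (all 3 of wild type under vehicle, wild type under IIAEK replicate 3, and knockout under vehicle replicate 1 and under IIAEK replicate 3) and -2.01 to -0.55 on the other 6. Wild type under vehicle replicate 1 had the lowest pancreatic enzyme mean (2.81 against 7.69 to 9.61 elsewhere), and knockout under IIAEK replicate 3 the highest smooth muscle mean (4.49 against 2.68 to 3.84 elsewhere). The arrays lay on 2 slides, with 7 arrays on slide 1 and 5 on slide 2, and each group was on both.

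Of the 10 genes, 9 were measurable and none of these 9 was called in any contrast, while Fgf15 was not detected. A gene was called at a limma adjusted p under 0.05 over all 26107 features tested. That rule called 0% of all features for the peptide against vehicle in either genotype, for its average over genotypes and for the difference between genotypes. For knockout against wild type it called 0.00766% under vehicle, 0.00766% under IIAEK and 0.0192% averaged over treatments, so a count of 0 among 9 genes lies near the background. At an unadjusted p under 0.05, 1 of the 9 genes passed for IIAEK in the knockout (1.91% of all features) and for the knockout under vehicle (3.85%), in both cases Nr1h4. In the other contrasts 0 of 9 passed, beside 3.14% of all features for IIAEK in wild type, 1.31% for the knockout under IIAEK, 1.52% for the difference between genotypes, and 2.94% and 3.03% for the average IIAEK and knockout effects. Groups did not overlap for 0 of 9 genes under IIAEK in wild type (9.28% of all features), and for 1 of 9 each under IIAEK in the knockout (4.68%), for the knockout under vehicle (14.4%) and for the knockout under IIAEK (3.85%). Standard errors of the 9 genes' log2 fold changes ran from 0.166 to 0.552 between 2 groups, so the widest of the 95% intervals reach beyond 1 log2 unit on each side and leave room for a 2-fold change. The labels number the arrays as replicates without naming the animals, so p-values measure the spread between these samples.

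**Figure D1:**
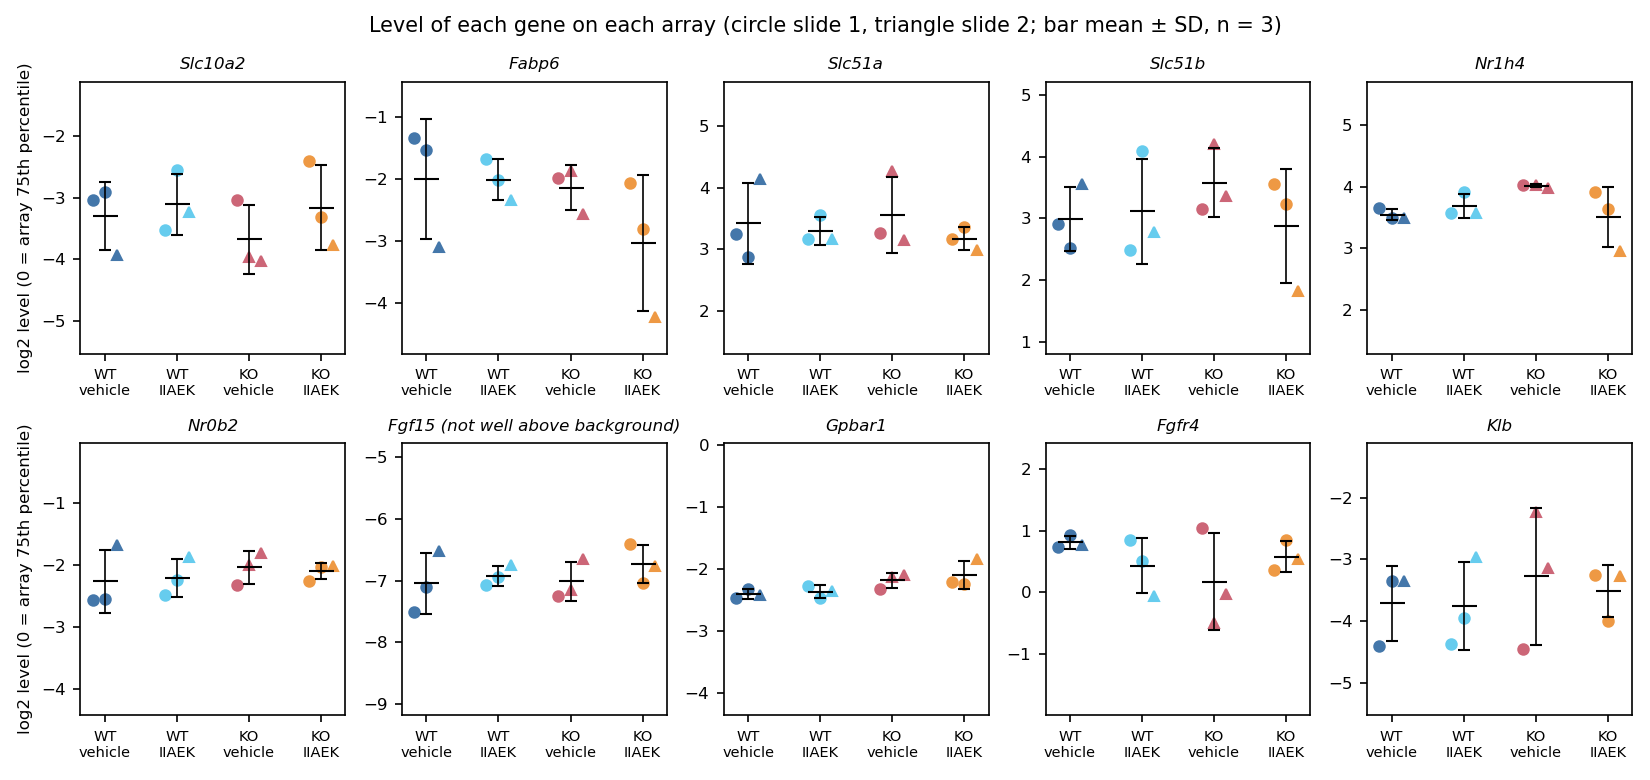
Level of each of the 10 genes (log2, 0 at the array's 75th percentile) on the 12 arrays, by group, with circles for slide 1, triangles for slide 2, and a bar for the mean ± SD of 3 arrays. Every panel spans the same number of log2 units; groups overlap in most panels, the tight cluster of Nr1h4 in the knockout under vehicle (3.98 to 4.03) lies above wild type under vehicle, and no Fgf15 point is well above background.

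Slc10a2, the sodium-dependent uptake transporter of the ileal brush border, gave a low but measurable signal. It was well above background on 12 of 12 arrays, with raw processed intensities of 12.8 to 56.4. Its log2 levels were -3.05, -2.91 and -3.93 in wild type under vehicle, -3.53, -2.56 and -3.23 in wild type under IIAEK, -3.03, -3.96 and -4.02 in the knockout under vehicle and -2.42, -3.32 and -3.77 in the knockout under IIAEK. The 4 groups all overlapped. The log2 fold change for IIAEK was 0.19 (SE 0.43, limma adjusted p = 0.999) in wild type and 0.51 (SE 0.43, limma adjusted p = 0.9999) in the knockout, and for the knockout under vehicle it was -0.38 (95% interval -1.32 to 0.56).

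Fabp6, the cytosolic ileal bile acid binding protein whose promoter carries the inverted repeat printed above, varied most of the 9 genes. Its levels were -1.33, -1.53 and -3.10 in wild type under vehicle, -1.68, -2.01 and -2.33 in wild type under IIAEK, -1.99, -1.88 and -2.56 in the knockout under vehicle and -2.06, -2.80 and -4.22 in the knockout under IIAEK. One array of the knockout under IIAEK, replicate 3, was not well above background, and it was also the lowest of all. The log2 change for IIAEK in the knockout was -0.89 (SE 0.55, limma adjusted p = 0.9999), and it was -0.29 without that array, -0.44 and -2.01 within slides 1 and 2, and -0.23 with normexp background correction. On slide 2 that array was the only one of the knockout under IIAEK. Knockout against wild type under IIAEK differed by -1.02 (SE 0.55, 95% interval -2.23 to 0.19). In wild type the IIAEK difference was -0.02, and wild type under vehicle held both the highest Fabp6 level of all and the second lowest. Over the 12 arrays Fabp6 ranked against the adipocyte marker mean (rho = -0.80, permutation p = 0.0027, adjusted p = 0.0405; r = -0.62, adjusted p = 0.185) and with the array's 75th percentile (rho = 0.78, permutation p = 0.0034, adjusted p = 0.0456; r = 0.56, adjusted p = 0.243). Without the 2 farthest arrays these r were -0.58 and 0.35, within slide 1 they were -0.51 and 0.59, and within slide 2 -0.37 and 0.17. The adipocyte list had 8 of its 9 markers measured, and its mean ran from -0.57 to 1.46 in wild type under vehicle, 0.37 to 1.37 in wild type under IIAEK, -0.18 to 0.99 in the knockout under vehicle and 0.37 to 1.15 in the knockout under IIAEK. That mean was lowest on the array with the highest 75th percentile and highest on the array with the lowest, so the relations to both were not told apart. The part of fat tissue and of array signal in the Fabp6 levels was not tested.

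Slc51a, the alpha subunit of the basolateral bile acid and steroid exporter, was above the 75th percentile on every array. Its levels were 3.25, 2.87 and 4.14 in wild type under vehicle, 3.17, 3.56 and 3.17 in wild type under IIAEK, 3.27, 4.26 and 3.15 in the knockout under vehicle and 3.17, 3.36 and 2.99 in the knockout under IIAEK. Wild type under vehicle replicate 3 and knockout under vehicle replicate 2 stood above the other 10 arrays. Its log2 fold changes were -0.12 (SE 0.34) for IIAEK in wild type, -0.39 in the knockout, 0.14 for the knockout under vehicle and -0.13 under IIAEK. Within slides, the wild-type IIAEK difference was 0.31 on slide 1 and -0.97 on slide 2. Of each wild-type group, slide 2 held only replicate 3, so the second value sets 1 array against 1.

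Slc51b, the beta subunit without which the exporter does not reach the membrane, was also above the 75th percentile everywhere and varied more. Its levels were 2.92, 2.52 and 3.55 in wild type under vehicle, 2.50, 4.09 and 2.78 in wild type under IIAEK, 3.15, 4.21 and 3.36 in the knockout under vehicle and 3.56, 3.24 and 1.82 in the knockout under IIAEK. The lowest value was again knockout under IIAEK replicate 3, the array with the lowest enterocyte mean (6.62) and the highest smooth muscle (4.49) and fibroblast and endothelial (1.94) means. The log2 fold change was 0.13 (SE 0.52, limma adjusted p = 0.999) for IIAEK in wild type and -0.70 (SE 0.52, limma adjusted p = 0.9999) in the knockout. Without that array the knockout value was -0.18. Within slides it was 0.25 on slide 1 and -1.96 on slide 2, where that array was the only one of its group. The knockout differed from wild type by 0.58 under vehicle (95% interval -0.56 to 1.72) and by -0.25 under IIAEK. Over the 12 arrays Slc51b had an r of 0.65 with the enterocyte mean and of -0.67 with the smooth muscle mean (permutation p = 0.0237 and 0.0178, adjusted p = 0.185 and 0.168), with rho of 0.57 and -0.54 (adjusted p = 0.27 and 0.323). Without the 2 farthest arrays r was 0.39 and -0.43, within slide 1 it was 0.53 and -0.72, and within slide 2 0.76 and -0.96. The part of cell makeup in the Slc51b difference was not tested.

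Nr1h4, the gene of FXR, lay well above the 75th percentile everywhere and was the 1 member whose groups separated in a pair of comparisons. Its levels were 3.65, 3.50 and 3.49 in wild type under vehicle, 3.57, 3.92 and 3.57 in wild type under IIAEK, 4.02, 4.03 and 3.98 in the knockout under vehicle and 3.91, 3.64 and 2.96 in the knockout under IIAEK. All 3 knockout arrays under vehicle were above all 3 wild-type arrays under vehicle, by 0.46 log2 units (SE 0.21, unadjusted p = 0.0482, limma adjusted p = 0.993). They were also above all 3 knockout arrays under IIAEK, with a log2 change for the peptide of -0.51 (SE 0.21, 95% interval -0.97 to -0.05, unadjusted p = 0.0334, limma adjusted p = 0.9999). Both comparisons use the same 3 vehicle arrays of the knockout. In wild type the IIAEK difference in Nr1h4 was 0.14 (SE 0.21), and the test of the difference between genotypes gave -0.65 (SE 0.30, unadjusted p = 0.0511, limma adjusted p = 0.99999).

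The Nr1h4 difference under vehicle was 0.45 within slide 1, which held only replicate 1 of the knockout under vehicle. It was 0.51 within slide 2, which held only replicate 3 of wild type under vehicle. The difference ran from 0.32 to 0.55 over the 26 other settings tried. Several of these, such as leaving out an IIAEK array, cannot move it. The IIAEK difference in the knockout was less even, at -0.25 within slide 1, -1.04 within slide 2 and -0.24 without knockout under IIAEK replicate 3. That array was the only one of its group on slide 2. It had the highest mean of the 6 smooth muscle markers, all of which were measured on every array. The mean of that list ran from 3.50 to 3.69 in wild type under vehicle, 3.14 to 3.84 in wild type under IIAEK, 3.12 to 3.54 in the knockout under vehicle and 2.68 to 4.49 in the knockout under IIAEK. Over the 12 arrays Nr1h4 and the list mean had a Pearson r of -0.80 (permutation p = 0.00325, adjusted p = 0.065 over 120 relations) and a Spearman rho of -0.64 (adjusted p = 0.214). The r was -0.57 without the 2 arrays farthest from the median, -0.73 within slide 1 and -0.96 within slide 2. The part of smooth muscle in the Nr1h4 difference was not tested.

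Nr0b2 encodes SHP, a corepressor that FXR induces and that silences bile acid synthesis genes in the liver. Its levels were -2.56, -2.55 and -1.68 in wild type under vehicle, -2.49, -2.24 and -1.88 in wild type under IIAEK, -2.32, -1.99 and -1.80 in the knockout under vehicle and -2.25, -2.03 and -2.02 in the knockout under IIAEK. All groups overlapped, and the largest of the 4 pairwise differences was 0.23 (SE 0.26, limma adjusted p = 0.993), for the knockout under vehicle. The r between Nr0b2 and the log2 75th percentile was -0.80 (permutation p = 0.00147, adjusted p = 0.0588) and the rho -0.82 (adjusted p = 0.0351). The r was -0.66 without the 2 farthest arrays, -0.65 within slide 1 and -0.95 within slide 2. That percentile is subtracted in the level, and the processed intensity was 48.3 to 78.8, so a negative r is in part built in. The permutation p does not allow for this. Nr0b2 also ranked with the adipocyte marker mean (rho = 0.87, permutation p = 0.00034, adjusted p = 0.00816; r = 0.77, adjusted p = 0.065), with an r of 0.77 without the 2 farthest arrays, 0.49 within slide 1 and 0.59 within slide 2. The adipocyte mean was itself lowest (-0.57) on the array with the highest 75th percentile (465, wild type under vehicle replicate 1). It was highest (1.46) on the array with the lowest (195, replicate 3 of that group). The relations of Nr0b2 to fat markers and to the percentile were therefore not told apart. The part of fat tissue and of array signal in the Nr0b2 levels was not tested.

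Fgf15, the ileal hormone that FXR induces, was not well above background on any of the 12 arrays. Its processed intensity was 2.1 to 2.7 throughout, and its log2 level (-7.51 to -6.41) followed the array's scaling value (r = -0.94, permutation p = 3e-05, adjusted p = 0.0036; rho = -0.95; -0.90 without the 2 farthest arrays; -0.95 and -0.89 within slides 1 and 2). Subtracting the scaling value from a nearly constant intensity builds this negative r in, so its permutation p is not read as a result. No fold change is given for Fgf15. A change in Fgf15 was not detectable at this signal.

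Gpbar1, the gene of the membrane receptor TGR5, had the smallest spread of the 9 genes. Its signal was low, with processed intensities of 36.3 to 84.0. Its levels were -2.47, -2.32 and -2.43 in wild type under vehicle, -2.27, -2.47 and -2.36 in wild type under IIAEK, -2.33, -2.13 and -2.09 in the knockout under vehicle and -2.21, -2.25 and -1.84 in the knockout under IIAEK. The 3 knockout arrays under IIAEK lay above the 3 wild-type arrays under IIAEK, by 0.27 log2 units (SE 0.17, 95% interval -0.10 to 0.63, limma adjusted p = 0.99998). Under vehicle the difference was 0.22, with an overlap at -2.33 and -2.32. Averaged over both treatments, the knockout was higher by 0.24 (SE 0.12, unadjusted p = 0.0613, limma adjusted p = 0.999), and the value was 0.11 on slide 1, 0.42 on slide 2 and 0.11 with normexp. TGR5 is also made by macrophages. The mean of 11 macrophage and dendritic cell markers, all measured on every array, ran from 1.64 to 1.86 in wild type under vehicle, 1.67 to 1.78 in wild type under IIAEK, 1.75 to 2.26 in the knockout under vehicle and 1.80 to 1.90 in the knockout under IIAEK. Its rank order over the 12 arrays was close to that of Gpbar1 (rho = 0.92, permutation p = 8e-05, adjusted p = 0.0048; r = 0.65, adjusted p = 0.185). Without the 2 farthest arrays r was 0.80, and it was 0.83 and 0.50 within slides 1 and 2. Gpbar1 also lies on chromosome 1, the chromosome of Akp3. An effect of losing Akp3 cannot be told apart here from DNA carried along with the knocked-out gene. The part of these cells and of linked DNA in the Gpbar1 difference was not tested.

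**Figure D2:**
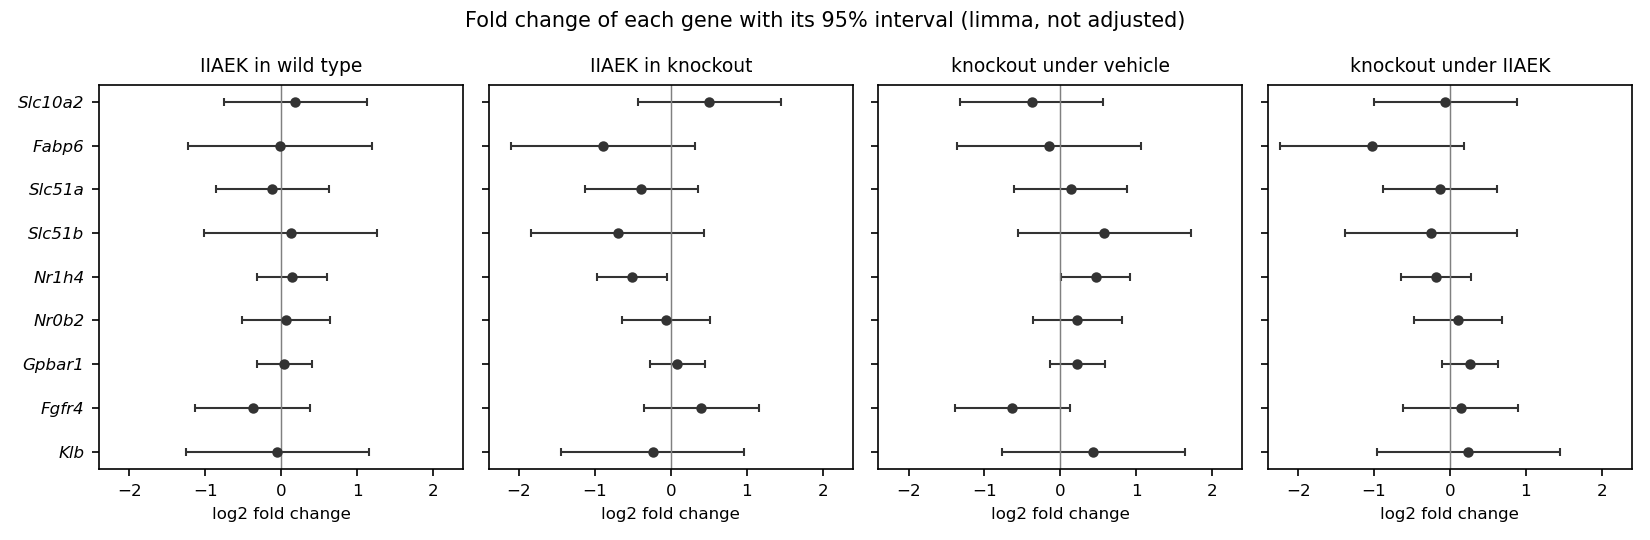
Log2 fold change of the 9 tested genes with unadjusted 95% intervals in the 4 pairwise comparisons (IIAEK minus vehicle, knockout minus wild type). Of the 36 intervals, those of Nr1h4 for IIAEK in the knockout (-0.97 to -0.05) and for the knockout under vehicle (0.0045 to 0.92) lie on 1 side of 0, and no gene passed the adjusted threshold.

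Fgfr4, the FGF15 receptor, had a pair of measured probes that gave different pictures. On the brighter probe, which stands for the gene in the fit, the levels were 0.73, 0.93 and 0.77 in wild type under vehicle, 0.84, 0.51 and -0.05 in wild type under IIAEK, 1.05, -0.49 and -0.03 in the knockout under vehicle and 0.36, 0.85 and 0.53 in the knockout under IIAEK. On the dimmer probe they were -1.48, -1.18 and -0.73 in wild type under vehicle, -1.98, -2.44 and -1.11 in wild type under IIAEK, -0.98, -1.24 and -1.18 in the knockout under vehicle and -2.07, -1.74 and -0.30 in the knockout under IIAEK. Both were well above background on all 12 arrays, yet their r over these arrays was -0.05. The brighter probe's knockout difference under vehicle was -0.63 (SE 0.34, limma adjusted p = 0.993), while the dimmer probe gave -0.0022 (SE 0.44). For IIAEK in the knockout the values were 0.40 and -0.24, of opposite sign, and for IIAEK in wild type -0.38 and -0.71. The sign differed between the probes in 3 of the 7 contrasts, and neither probe was called in any of them.

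The dimmer Fgfr4 probe moved with the mean of 8 genes listed as bile duct and gall bladder markers, all measured on every array. Among them were the epithelial keratin Krt19 and the chloride channel Cftr. The list mean ran from 1.38 to 1.63 in wild type under vehicle, 0.90 to 1.92 in wild type under IIAEK, 1.44 to 1.50 in the knockout under vehicle and 1.07 to 1.94 in the knockout under IIAEK. Its r with that probe was 0.90 (permutation p = 0.00011, adjusted p = 0.0066; rho = 0.92, adjusted p = 0.0056), with 0.84 left after removal of the 2 farthest arrays and 0.92 and 0.62 within slides 1 and 2. The 2 arrays with the highest list means, replicate 3 of each IIAEK group, were also the 2 highest in stomach mucous markers. Which cells of the duodenum this list follows, and their part in the probe's levels, was not tested.

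Klb, the co-receptor beta-Klotho that FGF15 needs to bind Fgfr4, gave a low signal. One of its 2 probes was well above background on 0 of 12 arrays. On the measured probe the levels were -4.40, -3.36 and -3.35 in wild type under vehicle, -4.36, -3.94 and -2.96 in wild type under IIAEK, -4.44, -2.23 and -3.14 in the knockout under vehicle and -3.26, -4.00 and -3.27 in the knockout under IIAEK. The knockout under vehicle held both the lowest and the highest value, and none of the 4 pairwise comparisons tested gave more than 0.43 (SE 0.55, limma adjusted p = 0.993). Klb ranked with the pancreatic enzyme list (rho = 0.88, permutation p = 0.00031, adjusted p = 0.00816; r = 0.60, adjusted p = 0.206). Without the 2 arrays farthest from the median r was 0.85, and it was 0.56 and 0.77 within slides 1 and 2. All 12 markers of that list were measured, with means of 2.81 to 9.04 and 8.29 to 9.23 in wild type under vehicle and IIAEK, and of 7.69 to 9.61 and 8.73 to 9.32 in the knockout. The part of pancreas in the Klb levels was not tested.

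The genes also differed in how steady they were among replicates. The residual SD within groups was 0.77 for Fabp6, 0.76 for Klb and 0.73 for Slc51b, at the 94.5, 94.2 and 93.7 percentiles of all features, whose median was 0.30. Slc10a2 stood at the 88.3 percentile, Fgfr4 at 80.3 and Slc51a at 79.9. Nr0b2 (57.0) and Nr1h4 (41.4) lay near the middle, and Gpbar1 (8.66) among the steadiest. The larger spread of the transport genes therefore sets wider limits on what could be seen for them than for the receptors Nr1h4 and Gpbar1.

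Among the 36 pairs of tested genes, 2 correlated over the 12 arrays at an adjusted permutation p under 0.05. The share of pairs of all features that would pass was not computed, so this count has no background beside it. The permutation took no account of group or slide. Nr1h4 and its target Slc51b moved together (r = 0.80, permutation p = 0.00194, adjusted p = 0.0349), although the rank correlation was 0.66 (adjusted p = 0.161). The r was 0.56 without knockout under IIAEK replicate 3 and knockout under vehicle replicate 2, 0.74 and 0.87 within slides 1 and 2, and 0.78 on deviations from the group means. Nr1h4 and Slc51b each also ran against the smooth muscle mean (r = -0.80 and -0.67), whose part in this relation was not tested. Fgfr4 on its brighter probe ran opposite to its co-receptor Klb (r = -0.82, permutation p = 0.00076, adjusted p = 0.0274; rho = -0.83, adjusted p = 0.0497). That r was -0.61 without the 2 farthest arrays, -0.49 within slide 1 and -0.88 within slide 2. The relation is given for the brighter probe alone, which did not move with the dimmer Fgfr4 probe (r = -0.05). An r of the dimmer probe with Klb was not computed, so the relation is not shown for the gene. The exporter subunits Slc51a and Slc51b had an r of 0.73 (adjusted p = 0.0766) and a rho of 0.65 (adjusted p = 0.161). Their r was 0.76 without the 2 arrays highest in Slc51a and 0.78 and 0.82 within slides, so the subunits tracked each other on both slides without passing the adjusted threshold.

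**Figure D3:**
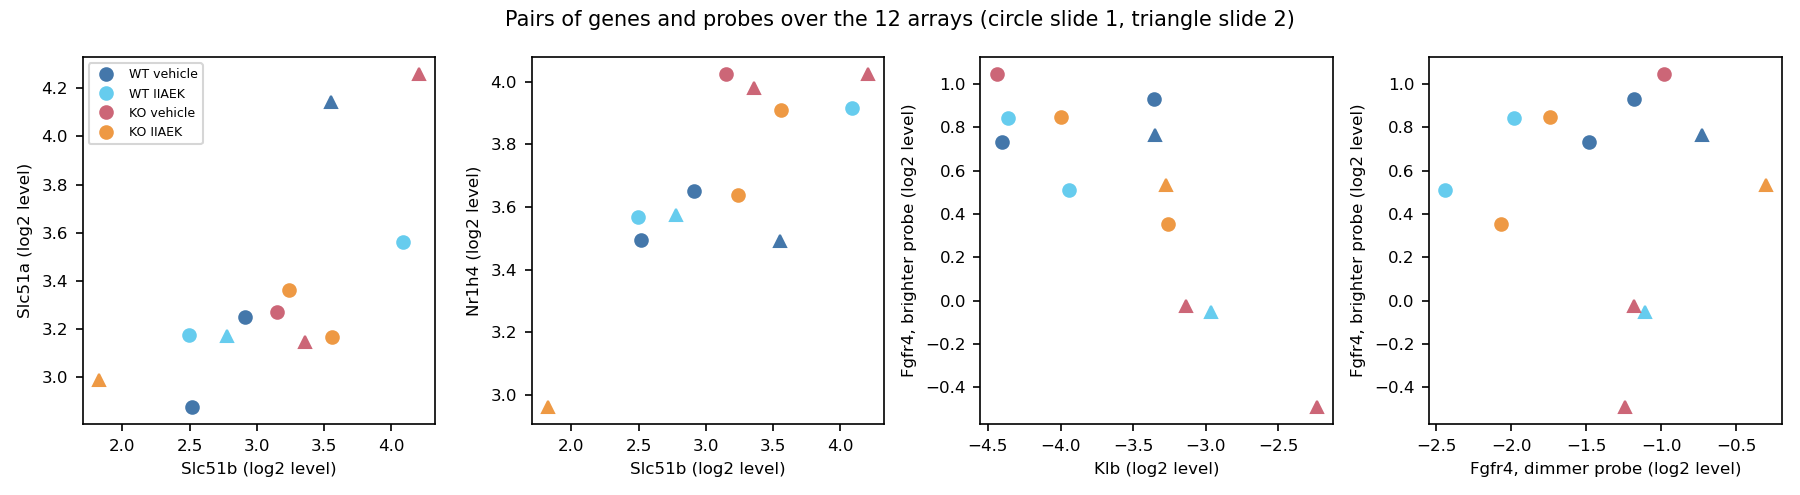
Log2 levels of gene and probe pairs on the 12 arrays, coloured by group, circles for slide 1 and triangles for slide 2: Slc51a against Slc51b (r = 0.73), Nr1h4 against Slc51b (0.80), the brighter Fgfr4 probe against Klb (-0.82) and against the dimmer Fgfr4 probe (-0.05). The leftmost point in both Slc51b panels is knockout under IIAEK replicate 3.

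Among the genes whose pattern was most like that of each member over the 12 arrays, of 15582 other named genes, were Abcb1a (r = 0.91) and Hbb-bt (0.90) for Slc51a, and Galnt1 (0.96), Ms4a8a (0.95) and Pdcd6 (0.94) for Slc51b. For Nr1h4 they were Dstn (0.97), Ankrd49 (0.96) and Bzw1 (0.95), for Nr0b2 Tm4sf5 (0.96) and Kdelr2 (0.96), and for Gpbar1 Wdr25 (0.92), Olfml3 (0.87) and Bicc1 (0.87). For Slc10a2 they were LOC668415 (0.92), Adcyap1r1 (0.91) and Tmf1 (0.91), for the brighter Fgfr4 probe Gm28818 (0.96), Mapt (0.95) and Dmrtb1 (0.95), and for Klb Trp73 (0.96), Celsr1 (0.96) and Ttyh1 (0.96). No member of the set was among the 3 closest genes of another.

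The wider bile acid pathway was read from 7 lists, and none of their tested genes was called in any contrast. Of 19 nuclear receptors and regional regulators, 19 were tested, among them the FXR partner Rxra and the duodenal factors Pdx1 and Gata4. Their median log2 fold change for IIAEK was 0.10 in wild type and 0.01 in the knockout, beside 0.03 and -0.0032 over all features. Gata6, a GATA factor of the gut, had 0.33 (SE 0.13) for IIAEK in wild type at an unadjusted p of 0.0243. Of 14 other bile acid and organic anion transporters, 9 were tested, and the canalicular exporter Abcb11 and Slco1a4, Slco1a5, Slco1a6 and Slco1b2 did not pass the filter. Slc10a6, which carries sulphated steroids, had -1.07 (SE 0.39, unadjusted p = 0.0186) for IIAEK in wild type. Of 15 genes of bile acid synthesis and conjugation, 10 were tested. Cyp7a1 and Cyp8b1, the rate-limiting and the 12-alpha hydroxylase of the liver pathway, and the conjugating enzyme Baat were well above background on 0 of 12 arrays. Amacr, a racemase of side-chain shortening, had 0.58 (SE 0.25, unadjusted p = 0.0402) for IIAEK in the knockout. Of 10 FGF and FGF receptor genes, 8 were tested, and of 7 gut hormone genes linked to TGR5, 6 were tested, with list medians for IIAEK of 0.17 and 0.01 in wild type and -0.03 and 0.04 in the knockout.

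Other gut targets of FXR, 10 of 10 tested, had list medians of 0.05 and -0.10 for IIAEK in wild type and in the knockout, and of 0.16 and 0.14 for the knockout under vehicle and under IIAEK. The sterol exporter subunits of that list, Abcg8 and Abcg5, had log2 differences of -0.66 (SE 0.23, unadjusted p = 0.0142) and -0.53 (SE 0.21, unadjusted p = 0.032) in the knockout under IIAEK. In wild type under IIAEK, Abcg8 had 0.62 (SE 0.23, unadjusted p = 0.0206) and Car12, a carbonic anhydrase, -1.40 (SE 0.63, unadjusted p = 0.0486). Their limma adjusted p was 0.999 to 0.99998. All of these comparisons use the same wild-type arrays under IIAEK. For the knockout under vehicle Abcg8 and Abcg5 had -0.17 and -0.01. The test of the difference between genotypes gave -0.49 and -0.51 (unadjusted p = 0.157 and 0.119).

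For IIAEK in wild type and for the knockout under vehicle, the list farthest from the median of all features was bile acid detoxification, targets of the receptors PXR and VDR such as the hydroxylases Cyp3a11 and Cyp2c55, with 11 of 14 tested. Its median was 0.51 for IIAEK in wild type (9 of 11 above 0) and 0.43 for the knockout under vehicle (11 of 11), beside 0.03 and 0.03 over all features. It was -0.07 for IIAEK in the knockout and -0.18 for the knockout under IIAEK, and the difference between genotypes was -0.52, with 0 of 11 above 0. Leaving out each array in turn, the medians ran from 0.25 to 0.70 for IIAEK in wild type, -0.40 to 0.41 for IIAEK in the knockout, 0.24 to 0.64 for the knockout under vehicle, -0.51 to 0.22 for the knockout under IIAEK and -0.79 to -0.16 for the difference. Without knockout under IIAEK replicate 3, the median was 0.41 for IIAEK in the knockout, 0.22 for the knockout under IIAEK and -0.16 for the difference. Without wild type under IIAEK replicate 2 it was 0.25 for IIAEK in wild type, 0.0062 for the knockout under IIAEK and -0.32 for the difference. For the knockout under vehicle it was 0.24 without wild type under vehicle replicate 1 and 0.26 without knockout under vehicle replicate 2. The 2 positive medians share the wild-type vehicle arrays, all 3 of which were high in stomach mucous markers. With the stomach and pancreas means as covariates these medians were 0.17 and -0.17, and the difference between genotypes was -0.15. Most arrays set against the wild-type vehicle arrays here were low in stomach markers, so this fit cannot separate treatment or genotype from tissue. The part of stomach and pancreas tissue in these medians was not tested. The wild-type IIAEK median was 0.85 within slide 1 and -0.17 within slide 2, which held only replicate 3 of each wild-type group. Cyp2c55 alone reached an unadjusted p of 0.0387 (1.43, SE 0.61, for IIAEK in wild type, limma adjusted p = 0.999), and its levels were 0.99, 0.69 and 0.24 under vehicle against 2.15, 3.24 and 0.83 under IIAEK.

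**Figure D4:**
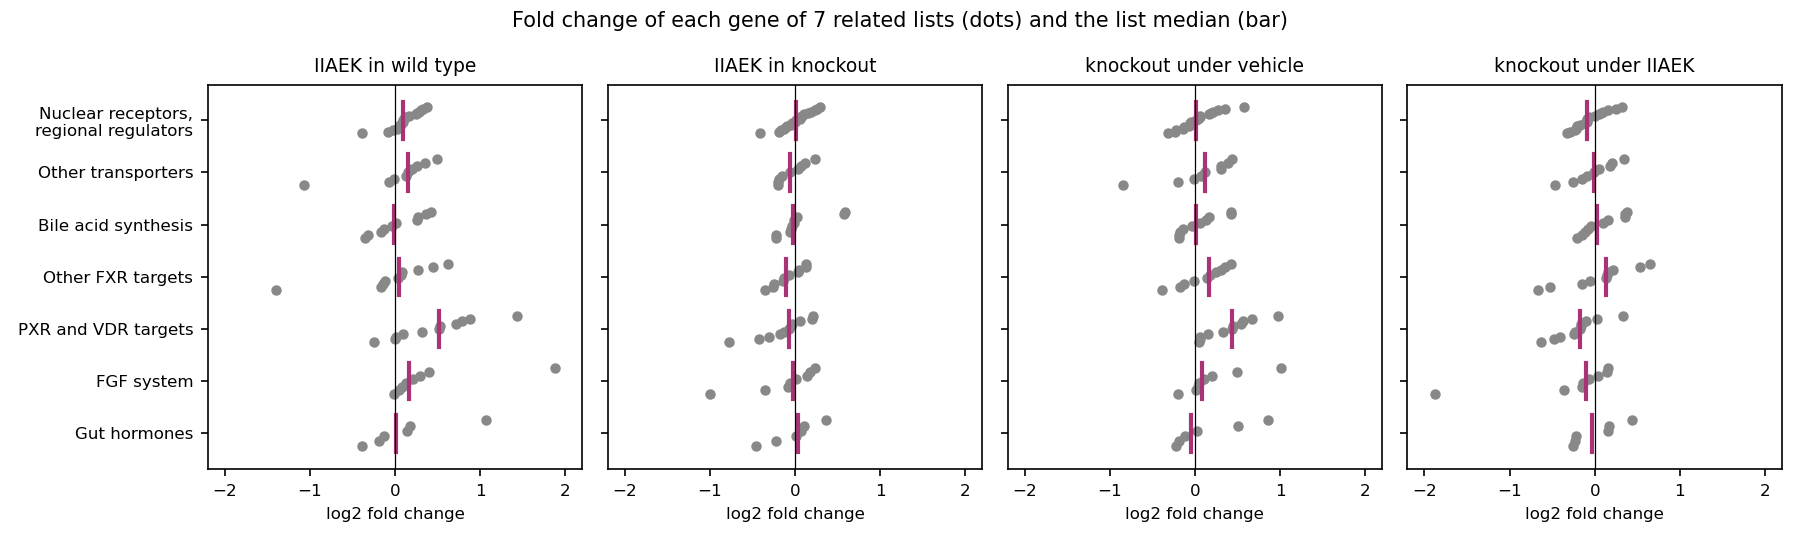
Log2 fold change of each tested gene of the 7 pathway lists (grey dots) and the list median (bar) in the 4 pairwise comparisons. The medians of PXR and VDR targets were 0.51 for IIAEK in wild type and 0.43 for the knockout under vehicle, and the other medians lay between -0.18 and 0.17.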

How the data were processed

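Duodenal RNA of 12 samples was hybridised to 12 one-colour Agilent mouse arrays. Per the file headers, the authors' deposited scanner files came from Feature Extraction 10.7.3.1 and hold, for each of 62976 spots, a processed intensity that is background-subtracted but not scaled between arrays. The authors' deposited value table holds log2 values. It could be rebuilt from the scanner files by scaling every array to its 75th percentile, taking log2 and centring each probe on its median (r at least 0.999996), so its scale, centring and direction follow from this match. Its column medians ran from -0.09 to 0.12.

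Control spots (3671) and flagged outlier spots were left out, log2 values of repeated spots were averaged, and the array's 75th percentile was subtracted. Accessions were matched without versions to RefSeq genes of GRCm38.p6, which named 32978 of 56583 probes; the scanner files name an older build, so only promoter coordinates are given, from that RefSeq table. A probe was kept for testing if it was well above background throughout the 3 arrays of some group, and the brightest stood for its gene, which left 26107 features, 15583 of them named. Group means were estimated over the 12 arrays in limma 3.58.1 under R 4.3.3 (eBayes with an intensity trend), with 7 contrasts, two-sided tests and Benjamini-Hochberg adjustment over all features. The script was tested on simulated data. With 3 arrays in a group, their number limits the precision.

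Permutation tests of correlations used 100000 resamples, two-sided, with p adjusted over 36 pairs of genes or over 120 relations of genes and probes to marker lists and scaling. The scaling value is subtracted in every level, which pulls a relation to it towards a negative r. The stomach list split the arrays into 2 sets and was not correlated. Named genes were all 10 members, the 3 most like each member measured on all 12 arrays, and, from the pathway lists, genes among the 2 with the smallest p in a comparison; some genes that this rule takes are left out of the text. A few others are named for what they are known to do or because they did not pass the filter. The members and the lists were chosen with earlier results of these data known. The normexp alternative used the median spot signal. Replicate numbers were not taken to pair samples.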

Additional observations from a re-analysis of the deposited data

How the results depend on the processing

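None of the 9 genes was called in any of the 7 contrasts under any alternative, and 154 of 1611 recomputed log2 fold changes changed sign. On slide 2 alone, Slc51b had -1.96 for IIAEK in the knockout and 18 of 63 values changed sign. There knockout under IIAEK replicate 3 was the only array of its group. Leaving out the fits within 1 slide and the alternatives chosen after seeing the data, 100 of 1415 values changed sign and the lowest adjusted p was 0.545, without knockout under IIAEK replicate 3. The replicate block, the fit without an intensity trend and leaving out an array outside the contrast cannot move a log2 fold change. Such values count in both totals. Quantile normalization changed the sign of 4 of 63 values, normexp of 6, slide as a block of 8, and the authors' value table of 0. Stomach and pancreas means as covariates changed 10. Chosen after seeing the data, removal of the 2 arrays that stand apart in tissue markers changed 12, and the other Fgfr4 probe 3 of 7. Same-numbered samples of different groups had correlations of deviations from -0.252 to 0.699, over 0.1 in 11 of 18 pairs. In every group replicate 1 lay on slide 1 and replicate 3 on slide 2, so these correlations cannot separate pairing from slide. The labels do not name the animals, and the numbers were not taken as pairing. With the replicate block 0 of the 9 genes were called and the lowest limma adjusted p was 0.849. Each group holds every replicate number once, so this block cannot change a log2 fold change or its sign. Calls in the pathway lists from fits within a single slide are not given, as some groups there are single arrays. Signals near background limit Slc10a2, Fabp6 and Klb, and Fgf15 was not well above background. Nr0b2 and Gpbar1 were also dim, with processed intensities of 48.3 to 78.8 and of 36.3 to 84.0.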

Other observations

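Slc10a1, the sodium taurocholate uptake transporter of liver cells, is represented by 2 probes with opposite readings. One gave log2 levels of 9.28 to 9.84 and was well above background on 12 of 12 arrays, and the other gave -7.05 to -5.06 and was well above background on 0 of 12. The 8 tested hepatocyte markers had list means of -1.29 to 0.62. Which probe follows the Slc10a1 transcript was not tested, so no direction is given for this gene. Fgf23, a phosphate-lowering hormone made mainly in bone, also read 6.03 to 6.89 on its brightest probe and had a log2 difference of 0.49 (SE 0.18, unadjusted p = 0.0181, limma adjusted p = 0.993) in the knockout under vehicle.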
